A study of Homo sapiens with 4 samples.

Results

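Polycomb repressive complex subunits were read in A2780s cells, an established human epithelial ovarian cancer (EOC) cell line, in clones made to lose the glycosyltransferase GALNT3, or GALNT3 with its closest homolog GALNT6. The 9 genes were taken by name: the PRC2 genes EZH1, EZH2, EED, SUZ12 and JARID2 and the PRC1 genes BMI1, RNF2, CBX2 and CBX7, out of 29123 genes named on the array. All 9 were found, with 15 probes in all. Each probe was well above background in a channel often enough to be tested, among 27223 genes tested. Total RNA from 2 GALNT3 KO clones and from 2 clones labelled GALNT3/T6 KO was hybridized with Ctrl RNA on an array each, so a group is 2 clones and each replicate is 1 clone. Ctrl cells were mock-transfected A2780s cells. The GALNT3 KO clones were made with a CRISPR/Cas9 plasmid and a repair plasmid, puromycin selection and Cre excision of the inserted cassette. The double KO clones were GALNT3 KO clones that also carried a lentiviral shRNA against GALNT6 under puromycin. The methods also describe control clones made with a scramble shRNA vector. Where the Ctrl RNA came from cells without that vector, transduction and its selection cannot be told apart from the loss of GALNT6. By the labels, Cy3 marked Ctrl and Cy5 marked KO on every array, without a swap of dyes, and the direction of every ratio here rests on them, since the methods also speak of Ctrl RNA labelled in the reverse color. Each clone was set against its own Ctrl RNA by the methods, no Ctrl RNA was hybridized against Ctrl, and a difference between the groups includes any difference between those Ctrl RNAs.

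Polycomb proteins hold developmental genes and cell cycle inhibitors silent. PRC2 places methyl groups on lysine 27 of histone H3: EZH2 and its paralog EZH1 carry the catalytic SET domain, EED reads the finished mark, SUZ12 holds the complex together, and JARID2 is an accessory subunit that helps PRC2 to its sites. PRC1 ubiquitinates histone H2A through the E3 ligase RNF2 (also RING1B), paired with a PCGF protein such as BMI1 (PCGF4), and in its canonical form carries a CBX protein such as CBX2 or CBX7 that binds the PRC2 mark. EZH2 is known as an E2F target that is high in proliferating cells, and the INK4 locus with CDKN2A is a classic target of BMI1 and CBX7.

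The bases just upstream of the start were compared to see what the promoters of these genes share. RefSeq windows of GRCh38.p14 were at hand for 8 of the 9 genes (11 windows, with EZH2, JARID2 and BMI1 holding 2 each), and the 250 bases before each start were searched on both strands for CCAAT (the CCAAT box), for the E-box CACGTG, and for an E2F site in either of 2 spellings, TTTCGCGC or TTTGGCGC. The windows shown belong to EZH2, EED and CBX7, which were lower in both groups, and to JARID2 and BMI1, whose difference between the groups passed the test. Capitals mark a match, and ATTGG is CCAAT on the other strand.

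EZH2, chr7:148884292-148884541, minus strand: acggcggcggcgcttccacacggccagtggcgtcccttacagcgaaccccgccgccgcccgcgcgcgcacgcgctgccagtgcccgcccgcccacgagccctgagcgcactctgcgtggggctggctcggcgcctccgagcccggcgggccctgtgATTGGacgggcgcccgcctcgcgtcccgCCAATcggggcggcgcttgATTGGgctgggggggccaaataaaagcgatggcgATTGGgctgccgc
EED, chr11:86244503-86244752, plus strand: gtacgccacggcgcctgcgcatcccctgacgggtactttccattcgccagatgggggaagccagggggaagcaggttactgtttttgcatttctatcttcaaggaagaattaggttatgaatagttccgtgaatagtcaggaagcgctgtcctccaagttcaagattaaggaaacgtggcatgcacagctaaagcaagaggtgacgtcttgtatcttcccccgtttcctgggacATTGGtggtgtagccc
CBX7, chr22:39152681-39152930, minus strand: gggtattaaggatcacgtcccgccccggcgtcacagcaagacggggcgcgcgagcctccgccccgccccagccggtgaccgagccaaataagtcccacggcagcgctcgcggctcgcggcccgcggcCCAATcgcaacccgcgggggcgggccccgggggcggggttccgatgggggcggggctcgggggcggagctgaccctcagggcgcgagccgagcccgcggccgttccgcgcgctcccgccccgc
JARID2, chr6:15245819-15246068, plus strand: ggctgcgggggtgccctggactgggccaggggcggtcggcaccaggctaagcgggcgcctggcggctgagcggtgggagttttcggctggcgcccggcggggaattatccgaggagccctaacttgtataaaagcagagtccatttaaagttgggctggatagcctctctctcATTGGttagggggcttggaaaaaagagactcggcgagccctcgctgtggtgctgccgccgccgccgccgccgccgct
BMI1, chr10:22320849-22321098, plus strand: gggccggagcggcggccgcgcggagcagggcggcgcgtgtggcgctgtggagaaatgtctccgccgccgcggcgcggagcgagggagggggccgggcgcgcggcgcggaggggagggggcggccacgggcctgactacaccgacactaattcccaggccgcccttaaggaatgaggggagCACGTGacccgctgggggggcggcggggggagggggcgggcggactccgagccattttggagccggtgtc

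CCAAT was present in 5 of the 11 windows and in 32.0% of all 35116 windows of this length. The EZH2 window held 4 of them, from -94 to -9 relative to the start. The windows of EED, SUZ12, CBX7 and JARID2 held 1 each. CACGTG was present in the BMI1 window alone of these 11, from -70 to -65, and in 6.34% of all windows. Neither E2F spelling was present in any of the 11 windows, against 0.968% of all windows with one or the other. Further spellings of an E2F site were not searched, so this does not show that the windows lack one. The letters searched did not overlap one another. The RNF2 window held no match.

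An array held 45015 spots, of which 1639 were controls, and 86.86% to 93.76% of the others stood well above background in a channel. Log2 ratios over all genes correlated at 0.835 between the GALNT3 KO clones and at 0.917 between the clones labelled GALNT3/T6 KO, as a description across genes that share arrays and a slide. The targeted genes were read on each array. GALNT3 went against a label. On the arrays labelled GALNT3/T6 KO, its log2 ratio was 4.80 and 5.08, with the KO channel above Ctrl. On both GALNT3 KO arrays neither channel stood clear of background, which checks nothing there. GALNT6 was lower on every array, at -0.47 and -0.38 in the GALNT3 KO clones (adjusted p = 0.0446) and at -0.66 and -0.69 in the other group (adjusted p = 0.0034). The difference between the groups in GALNT6, -0.25, did not pass limma's test (adjusted p = 0.212). The paper reports more GALNT6 protein in its GALNT3 KO clones, while the values here are RNA and lower. Since GALNT3 went against the label, the GALNT3/T6 KO group is called by it, as the T3/T6-labelled arrays.

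Every value is a log2 ratio (KO over Ctrl). Calls rest on limma with Benjamini-Hochberg adjustment over 27223 genes, at an adjusted p no higher than 0.05, and standard errors (SE) come from the same fit. In the GALNT3 KO clones 3 of the 9 Polycomb genes fell (EZH2, EED and CBX7) and none rose, where 6.34% of all genes were called lower and 4.69% higher. On the T3/T6-labelled arrays 6 of the 9 fell (the same 3 genes with JARID2, BMI1 and RNF2) and none rose, where 23.1% of all genes were called lower and 24.8% higher. Between the groups 3 of the 9 differed (JARID2, BMI1 and RNF2), all lower on the T3/T6-labelled arrays, where 11.8% of all genes were called in that direction and 11.8% in the other. The median over the 9 genes was -0.28 in the GALNT3 KO clones and -0.75 on the T3/T6-labelled arrays, beside 0.02 and 0.03 over all genes tested. Clone by clone it was -0.13 and -0.44 in the GALNT3 KO clones and -0.72 and -0.77 on the T3/T6-labelled arrays. For 6 of the 9 all 4 arrays lay below 0, as for 24.6% of all genes. The calls in the GALNT3 KO clones and between the groups needed both GALNT3 KO clones, and none of them held without replicate 1 or without replicate 2 of that group. Such a fit assumes that the lone clone varies like the other group. The loss of the calls therefore mixes the missing clone with that assumption, and the calls are not shown to hold with either clone alone.

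**Figure D1:**
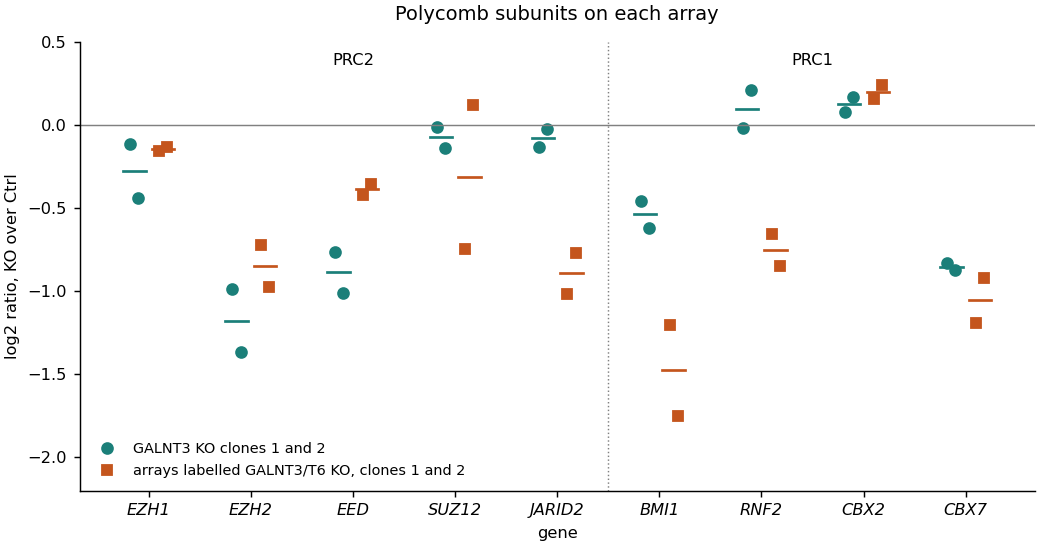
Log2 ratio of KO over Ctrl (vertical axis) for the brightest probe of each of the 9 Polycomb genes (horizontal axis), with a point for each array and a short line at each group's mean of 2. EZH2 and CBX7 lay at or below -0.72 on all 4 arrays, while JARID2, BMI1 and RNF2 were lower on both T3/T6-labelled arrays than on both GALNT3 KO arrays.

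EZH2, the main catalytic subunit of PRC2, was lower on every array. Its probe at chr7:148504521-148504580 (hg19, as are all probe positions here) read -0.99 and -1.37 in the GALNT3 KO clones and -0.72 and -0.97 on the T3/T6-labelled arrays. The means were -1.18 (SE 0.13, 2.26-fold lower, adjusted p = 0.0227) and -0.85 (SE 0.13, 1.80-fold lower, adjusted p = 0.0072). The groups did not overlap, but their difference of 0.33 (95% interval -0.16 to 0.82) did not pass the test (adjusted p = 0.306). The Ctrl channel of EZH2 lay between 13.80 and 13.91 on the 4 arrays, on the log2 signal scale, so the array-to-array spread of its ratio was in the KO channel, which lay between 12.47 and 13.12. Lower signal per cell and fewer cells that express a gene cannot be told apart in RNA from whole cultures.

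EED, the subunit that reads the methyl mark, fell with EZH2, and more in the GALNT3 KO clones by its values. Its probe at chr11:85989629-85989688 read -0.76 and -1.01 there and -0.42 and -0.35 on the T3/T6-labelled arrays. The means were -0.89 (SE 0.10, adjusted p = 0.0224) and -0.39 (SE 0.10, adjusted p = 0.0308). Every GALNT3 KO value lay below every value of the other group, and the difference of 0.50 had an adjusted p of 0.0659. The call on the T3/T6-labelled arrays was lost under several limma settings, with adjusted p up to 0.0831 when replicate 1 of that group was left out.

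EZH1, the paralog of EZH2 that is known from resting and differentiated cells, stayed within 0.44 of Ctrl. Its probe at chr17:40852674-40852733 read -0.11 and -0.44 in the GALNT3 KO clones (adjusted p = 0.147) and -0.16 and -0.13 on the T3/T6-labelled arrays (adjusted p = 0.322). None of these values was above Ctrl, though the mean of the T3/T6-labelled arrays was 0.11 with Agilent's own ratio. The 95% interval of its mean reached from -0.56 to 0.01 in the GALNT3 KO clones and from -0.43 to 0.14 on the T3/T6-labelled arrays. Neither interval reached a rise as large as the fall of EZH2. They rest on 1 probe of low signal and leave out the spread of Ctrl, so a larger change is not excluded. Both channels of EZH1 were dimmer on GALNT3 KO array 1, with a Ctrl signal of 8.14 on the log2 scale against 8.64 to 8.72 on the other arrays.

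JARID2, the accessory subunit, changed on the T3/T6-labelled arrays and had no call in the GALNT3 KO clones. Its probe at chr6:15521805-15521864 read -0.13 and -0.02 in the GALNT3 KO clones and -1.01 and -0.77 on the T3/T6-labelled arrays. The mean of the latter was -0.89 (SE 0.10, 1.86-fold lower, adjusted p = 0.0027), and that of the GALNT3 KO clones was -0.08 (adjusted p = 0.600). The difference between the groups, -0.82 (95% interval -1.18 to -0.45), passed the test (adjusted p = 0.0171). With median centring in place of loess its adjusted p was 0.0779.

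SUZ12, the scaffold of PRC2, was not called with its brightest probe, and its 3 probes did not move together. A pseudogene copy of part of SUZ12 is known on the same chromosome, so its signal is uncertain. The brightest probe, at chr17:30327536-30327595, read -0.01 and -0.13 in the GALNT3 KO clones and -0.75 and 0.12 on the T3/T6-labelled arrays, and the last pair differed by 0.87, the widest gap between clones among the 9 genes. Its group means were -0.07 (adjusted p = 0.829) and -0.31 (adjusted p = 0.287). With Agilent's own ratio the latter was -0.71 and called (adjusted p = 0.0497). Without replicate 1 of the latter group its value was 0.12, and without replicate 2 it was -0.75 (adjusted p = 0.0019), so that a single clone decided the call. The other probes, whose positions span more than their 60 bases, lie farther upstream in the gene and are shown for that reason, along with a BMI1 probe of the same kind.

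SUZ12 probe A_24_P873263, chr17:30302694-30303561, plus strand: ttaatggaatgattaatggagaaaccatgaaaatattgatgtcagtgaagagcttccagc
SUZ12 probe A_32_P24223, chr17:30264516-30267340, plus strand: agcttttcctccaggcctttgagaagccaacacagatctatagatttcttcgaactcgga
BMI1 probe A_24_P303989, chr10:22617587-22617995, plus strand: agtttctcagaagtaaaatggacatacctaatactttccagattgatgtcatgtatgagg

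The SUZ12 probe spanning 868 bases read -0.02 and -0.04 in the GALNT3 KO clones and -0.29 and -0.73 on the T3/T6-labelled arrays. In a fit over 38247 probes the latter mean of -0.51 was called (adjusted p = 0.0282). The SUZ12 probe spanning 2825 bases was lower on all 4 arrays, at -0.50, -0.68, -0.42 and -0.39, and was called in the GALNT3 KO clones (-0.59, adjusted p = 0.0323) and on the T3/T6-labelled arrays (-0.40, adjusted p = 0.0196). With the mean of the probes in place of the brightest, SUZ12 was called lower on the T3/T6-labelled arrays (-0.41, adjusted p = 0.0161).

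BMI1, the PCGF partner in canonical PRC1, had the lowest mean of the 9 genes on the T3/T6-labelled arrays. Its brightest probe, at chr10:22619812-22619878, read -0.46 and -0.62 in the GALNT3 KO clones and -1.20 and -1.75 on the T3/T6-labelled arrays. The mean of the latter was -1.48 (SE 0.15, 2.78-fold lower, adjusted p = 0.0022), and the difference from the GALNT3 KO clones was -0.94 (95% interval -1.51 to -0.37, adjusted p = 0.0405). In the GALNT3 KO clones the mean of -0.54 did not pass the test (adjusted p = 0.0865). It did with median centring (-0.75, adjusted p = 0.0371) and with that group fitted on its own arrays (adjusted p = 0.0044).

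The probes of BMI1 gave different values in the GALNT3 KO clones and like values on the other arrays. The probe at chr10:22619577-22619636 read 0.26 and 0.10 in the GALNT3 KO clones, above Ctrl, and -0.97 and -1.43 on the T3/T6-labelled arrays. The probe spanning 409 bases read -0.18 and -0.42, then -1.02 and -1.77. All 3 were called lower on the T3/T6-labelled arrays and lower than in the GALNT3 KO clones in the fit over probes, where the last of these had the highest adjusted p for the difference (0.0482). None of the 3 was called in the GALNT3 KO clones.

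RNF2, the E3 ligase of PRC1, fell on the T3/T6-labelled arrays with both of its probes. The brightest, at chr1:185069031-185069090, read -0.02 and 0.21 in the GALNT3 KO clones and -0.66 and -0.85 on the T3/T6-labelled arrays, a mean of -0.75 there (SE 0.10, 1.69-fold lower, adjusted p = 0.0051). The groups did not overlap, and their difference of -0.85 (95% interval -1.23 to -0.46) passed the test (adjusted p = 0.0178). The other probe, at chr1:185071124-185071183, read lower in each clone, at -0.37 and -0.19 and then at -1.29 and -1.73. The GALNT3 KO mean of 0.09 with the brightest probe (adjusted p = 0.538) lay below 0 with Agilent's own ratio (-0.06), median centring (-0.15) and the mean of the probes (-0.09), and it has no settled direction.

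CBX7, a reader of the PRC2 mark in canonical PRC1, was lower on every array with both probes. The brightest, at chr22:39526819-39526878, read -0.83 and -0.87 in the GALNT3 KO clones and -1.19 and -0.92 on the T3/T6-labelled arrays. The means were -0.85 (SE 0.10, 1.80-fold lower, adjusted p = 0.0242) and -1.05 (SE 0.10, 2.08-fold lower, adjusted p = 0.0017), and their difference of -0.20 (95% interval -0.57 to 0.17) did not pass the test (adjusted p = 0.417). The probe at chr22:39527000-39527059 read -1.25 and -1.07, then -1.61 and -1.20. With Agilent's own ratio the GALNT3 KO mean was -1.02 and its adjusted p 0.0650.

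CBX2, another reader of the mark, was the only one of the 9 genes above 0 on all 4 arrays, though without a call. Its probe at chr17:77755925-77755984 read 0.08 and 0.17 in the GALNT3 KO clones and 0.16 and 0.24 on the T3/T6-labelled arrays. The means were 0.12 (adjusted p = 0.327) and 0.20 (adjusted p = 0.106). On GALNT3 KO array 1 both channels of the probe were at background, so the ratio there is not exact.

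**Figure D2:**
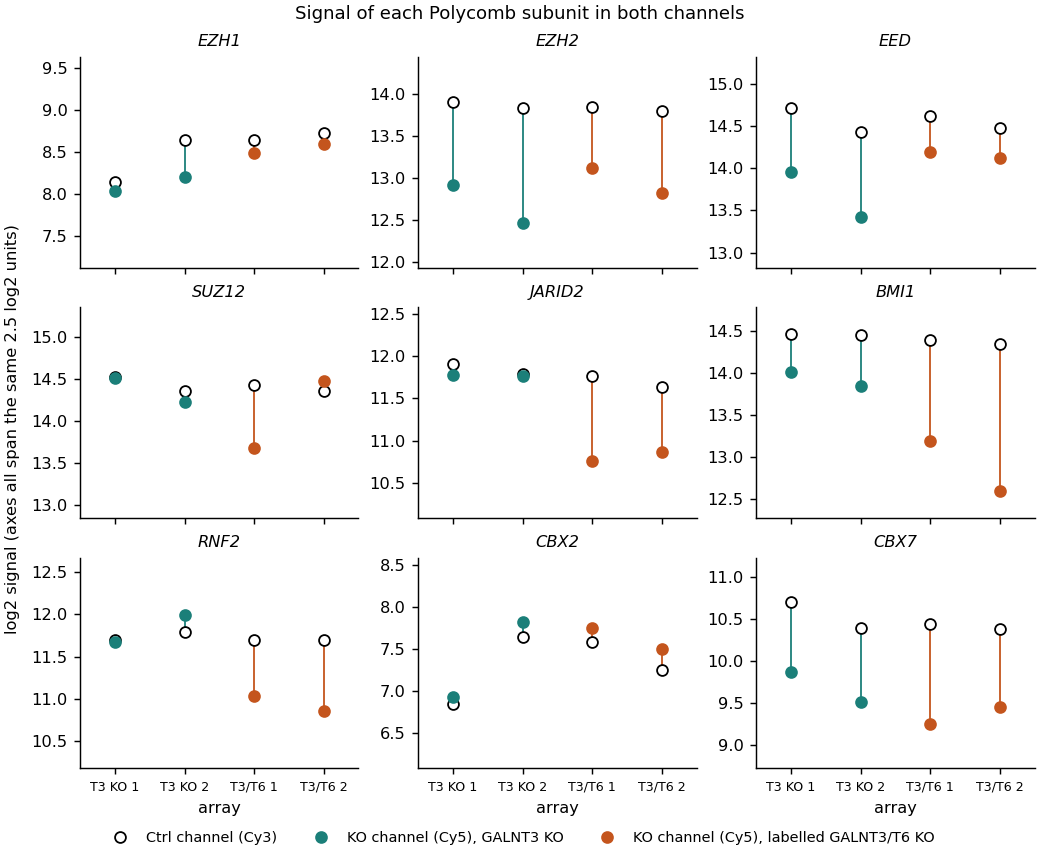
Log2 signal after loess and Aquantile normalization (vertical axes, each spanning the same range) of the brightest probe of each gene in the Ctrl channel (open points) and the KO channel (filled points) on the 4 arrays (horizontal axis; T3 KO is GALNT3 KO and T3/T6 marks the T3/T6-labelled arrays). For EZH2, BMI1, RNF2 and JARID2 the Ctrl points lay close together and the KO points carried the difference, whereas EZH1 and CBX2 were dimmer in both channels on GALNT3 KO array 1.

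Set against each other, the complexes did not differ in 1 direction across the clones. In GALNT3 KO clone 1 the median of the 5 PRC2 genes was -0.13 and that of the 4 PRC1 genes -0.24. In GALNT3 KO clone 2 the medians were -0.44 and -0.22. On the T3/T6-labelled arrays they were -0.72 and -0.92 in clone 1 and -0.35 and -0.88 in clone 2. PRC2 minus PRC1 was thus 0.11 and -0.22 in the GALNT3 KO clones and 0.20 and 0.53 on the T3/T6-labelled arrays, beside medians over all genes between 0.01 and 0.04. With so few genes the medians rested on single members: without EZH1 the value in GALNT3 KO clone 1 was -0.21, and without JARID2 it was -0.20. The sign held under every alternative on the T3/T6-labelled arrays and changed in both GALNT3 KO clones.

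Between the groups 6 of the 9 genes did not overlap, near the share over all genes. The catalytic subunit EZH2 and the reader EED lay higher on both T3/T6-labelled arrays than on both GALNT3 KO arrays, as did 30% of all genes. JARID2, BMI1, RNF2 and CBX7 lay lower on both, as did 31% of all genes. The distance between clones of a group, 0.16 in the median over the 9 genes for GALNT3 KO and 0.24 for GALNT3/T6 KO, was near that over all genes, 0.14 and 0.17.

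The counts of the lists that follow stand beside the same shares of all genes, 6.34% lower and 4.69% higher in the GALNT3 KO clones and 23.1% lower and 24.8% higher on the T3/T6-labelled arrays. Of the other PRC2 subunits on the array 9 were tested. Of these, 1 was called lower in the GALNT3 KO clones, and 2 were called lower and 1 higher on the T3/T6-labelled arrays, with medians of -0.04 and -0.00. RBBP4, a histone-binding subunit that PRC2 shares with other complexes, read -0.46 and -0.44 in the GALNT3 KO clones (adjusted p = 0.0525) and -0.90 and -0.66 on the T3/T6-labelled arrays (adjusted p = 0.0036). Its paralog RBBP7 read -0.48 and -0.59 and then 0.30 and 1.35, without a call in either group (adjusted p = 0.203 and 0.0525). Among the Polycomb-like accessory subunits, which bring PRC2 to CpG-rich DNA, MTF2 fell on the T3/T6-labelled arrays (-0.84 and -0.82, adjusted p = 0.0023), beside a mean of 0.12 in the GALNT3 KO clones. PHF19 fell in the GALNT3 KO clones (-0.96 and -0.68, adjusted p = 0.0492), and PHF1 rose on the T3/T6-labelled arrays (0.42 and 0.41, adjusted p = 0.0285). The difference between the groups passed the test for MTF2 (-0.94, adjusted p = 0.0080), while that of PHF19 had an adjusted p of 0.0518.

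Of 11 other canonical PRC1 subunits, 1 was called lower and 2 higher in the GALNT3 KO clones, and 5 lower and 1 higher on the T3/T6-labelled arrays, where the list's median was -0.43. RING1, the paralog of RNF2, read -0.47 and -0.33 in the GALNT3 KO clones (adjusted p = 0.0613) and -0.31 and -0.13 on the T3/T6-labelled arrays (adjusted p = 0.118). SCMH1, a Polycomb protein related to Drosophila Scm, was called lower in both groups, at -0.58 (adjusted p = 0.0339) and -0.96 (adjusted p = 0.0016). The CBX readers diverged: CBX6 was higher in the GALNT3 KO clones (0.47, adjusted p = 0.0493) and lower on the T3/T6-labelled arrays (-0.83, adjusted p = 0.0030). CBX8 was higher in the GALNT3 KO clones (0.44, adjusted p = 0.0425). Of the Polyhomeotic proteins, PHC1 was called lower (-0.81, adjusted p = 0.0097) and PHC2 higher (0.73, adjusted p = 0.0048) on the T3/T6-labelled arrays. The difference between the groups passed the test for CBX6, CBX8 and PHC1.

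The variant PRC1 complexes replace the CBX protein by RYBP or its paralog. Of their 18 subunits, 1 was called lower and 1 higher in the GALNT3 KO clones, and 9 lower and 3 higher on the T3/T6-labelled arrays (median -0.43). RYBP was lower on every array, at -0.74 and -0.88 in the GALNT3 KO clones (adjusted p = 0.0210) and at -1.94 and -1.86 on the T3/T6-labelled arrays (3.74-fold lower in the mean, adjusted p = 0.0002). Its difference between the groups was -1.09 (adjusted p = 0.0053). PCGF5, a PCGF partner of variant PRC1, read 0.24 and 0.39 in the GALNT3 KO clones (adjusted p = 0.154, with Ctrl not well above background on 1 array) and 4.64 and 4.24 on the T3/T6-labelled arrays (21.7-fold higher in the mean, adjusted p = 0.0001). PCGF6, the PCGF partner with L3MBTL2, was called higher in both groups, at 0.45 (adjusted p = 0.0436) and 0.64 (adjusted p = 0.0042). L3MBTL2 itself was called lower on the T3/T6-labelled arrays (-1.29, adjusted p = 0.0006), as were BCORL1, a corepressor of the PCGF1 complex (-2.18, adjusted p = 0.0021) and AUTS2 (-1.31, adjusted p = 0.0129).

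Genes that take the Polycomb marks off were read beside their writers. Of 9 such genes, the H2A deubiquitinase subunits and the H3K27 demethylases, 1 was called lower in the GALNT3 KO clones, and 3 lower and 1 higher on the T3/T6-labelled arrays. KDM6A, a demethylase of the PRC2 mark, read -1.01 and -1.10 in the GALNT3 KO clones (2.08-fold lower in the mean, adjusted p = 0.0181) and -0.29 and -0.03 on the T3/T6-labelled arrays (adjusted p = 0.245), and the groups differed by 0.90 (adjusted p = 0.0142). KDM6B, the other demethylase, had means of 0.29 (adjusted p = 0.152) and 0.31 (adjusted p = 0.0869). Of the ASXL partners of the deubiquitinase BAP1, ASXL3 read 0.63 and 0.12 and then -3.37 and -3.69 (adjusted p = 0.0002 for the latter), ASXL2 was called lower (-1.41, adjusted p = 0.0098), and ASXL1 higher (0.98, adjusted p = 0.0074) on the T3/T6-labelled arrays. The deubiquitinase USP16 was called lower there (-0.59, adjusted p = 0.0351).

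**Figure D3:**
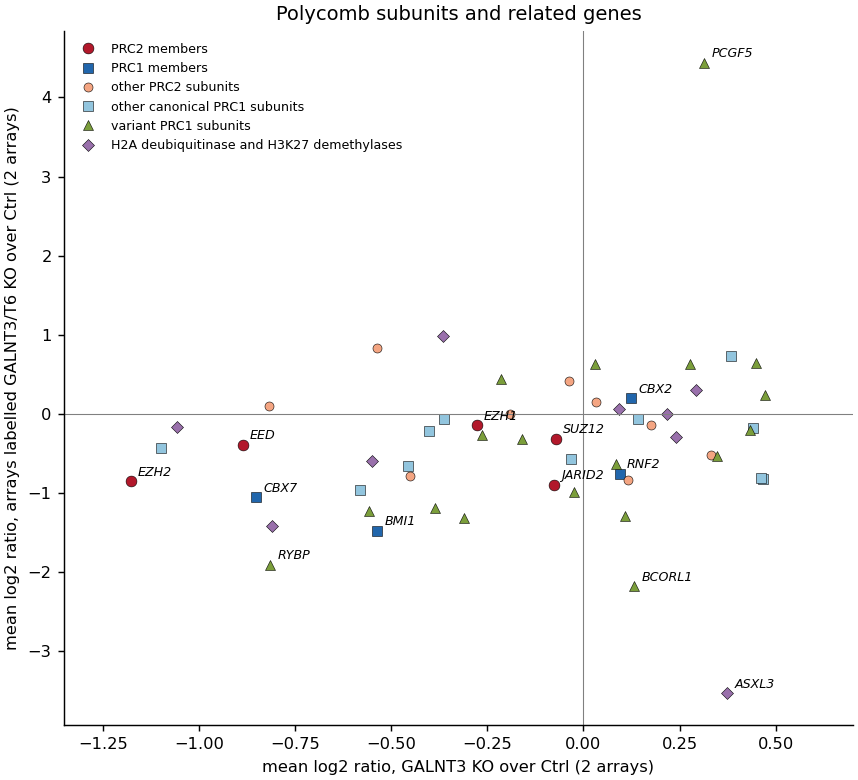
Mean log2 ratio over 2 arrays in the GALNT3 KO clones (horizontal axis) and on the T3/T6-labelled arrays (vertical axis) for the 9 Polycomb genes and for related genes, a point each, with symbols for the list. The vertical axis covers a wider range, from ASXL3 at -3.53 to PCGF5 at 4.44.

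Chromatin complexes that oppose Polycomb silencing were counted in the same way. Of 14 trithorax-type methyltransferase genes 2 were called lower and none higher in the GALNT3 KO clones, and 5 lower and 1 higher on the T3/T6-labelled arrays, where 23.1% of all genes were called lower and 24.8% higher. Of 17 SWI/SNF remodeler subunits 2 were called lower and 1 higher, and 9 lower and 1 higher. Their medians on the T3/T6-labelled arrays were -0.23 and -0.47, less far from 0 than the -0.75 of the 9 Polycomb genes, a description without a test. The other PRC2, other canonical PRC1 and variant PRC1 lists had medians of -0.00, -0.43 and -0.43 there. Both of these PRC1 lists thus lay below the median of 0.03 over all genes, while the other PRC2 list lay near 0. Taken apart, the 5 PRC2 genes had a median of -0.39 and the 4 PRC1 genes -0.90. The 9 genes were chosen with earlier results known, so their lower median does not set them apart.

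Known target genes of Polycomb silencing moved in both directions. Of 25 such genes, 3 were called lower and 4 higher in the GALNT3 KO clones (median 0.12), and 7 lower and 11 higher on the T3/T6-labelled arrays (median 0.26). CDKN2A, which encodes the cell cycle inhibitor p16, was higher on every array, at 2.43 and 2.39 in the GALNT3 KO clones (5.32-fold in the mean, adjusted p = 0.0048) and at 2.84 and 2.92 on the T3/T6-labelled arrays (7.37-fold, adjusted p = 0.0001). Its neighbor CDKN2B read 0.54 and 0.34 (adjusted p = 0.132) and then 2.59 and 3.17 (adjusted p = 0.0004), and the groups differed by 2.44 (adjusted p = 0.0032). CDKN1C, a further inhibitor of cyclin-dependent kinases, went in opposite directions, at -1.72 and -0.98 (adjusted p = 0.0425) and at 2.86 and 3.55 (adjusted p = 0.0009).

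Of the developmental transcription factors among the targets, those with the largest called changes follow. On the GALNT3 KO arrays GATA6 was at background in the Ctrl channel on both and in the KO channel on 1, so no size is given there. On the T3/T6-labelled arrays it read 5.00 and 5.10 (adjusted p = 9.21e-05). KLF2 read -1.13 and -1.16 (adjusted p = 0.0615) and then 2.57 and 1.45 (adjusted p = 0.0047). HOXD10 was higher in the GALNT3 KO clones, at 3.18 and 2.54 (7.25-fold in the mean, adjusted p = 0.0117), and lower on the T3/T6-labelled arrays, at -0.58 and -1.07 (adjusted p = 0.0276). Its neighbor HOXD11 showed the same order, at 0.91 (adjusted p = 0.0204) and -0.43 (adjusted p = 0.0197). The paper lists HOXD10 with EZH2 among network genes that were lower upon GALNT3 ablation. In the GALNT3 KO clones HOXD10 went the other way here, while EZH2 went the same way as in the paper. The cause was not tested. RUNX3 was lower in both groups, at -1.07 in the GALNT3 KO clones (adjusted p = 0.0160), a value that is not exact since its KO channel was at background on 1 of the arrays. On the T3/T6-labelled arrays its KO channel was at background on both, and it was at least 2.45-fold lower.

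**Figure D4:**
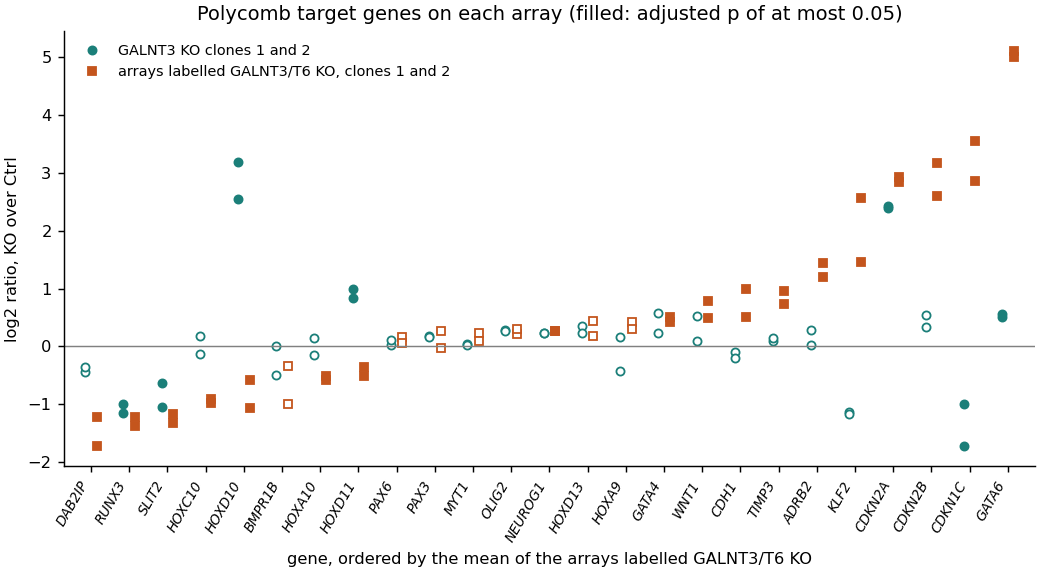
Log2 ratio of KO over Ctrl (vertical axis) of 25 Polycomb target genes (horizontal axis) on the 4 arrays, with filled points where the group was called. CDKN2A was above 2 on all 4 arrays, while CDKN1C, HOXD10 and HOXD11 lay on opposite sides of 0 in the groups; the RUNX3 points of both groups and the GATA6 points of the GALNT3 KO clones include signals at background and are not exact.

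E2F target genes, which mark proliferating cells, were read beside EZH2 and EED. Of 35 E2F target genes, a list that leaves EZH2 and EED out, 33 had means below 0 in the GALNT3 KO clones, where 9 were called lower and 1 higher, with a median of -0.48. On the T3/T6-labelled arrays 27 had means below 0, 15 were called lower and 2 higher, and the median was -0.44. The clones of that group stood apart, with medians of -0.85 in clone 1 and -0.23 in clone 2, and 31 and 21 of the 35 genes below 0. Their part in the values of EZH2 and EED was not tested.

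Cell type markers were read for the same reason. Of 9 epithelial markers none was called in the GALNT3 KO clones, while 5 were called higher on the T3/T6-labelled arrays, where the mean log2 signal of the list in the KO channel was 12.05 and 12.66, while the GALNT3 KO arrays read 9.25 and 9.28. The Ctrl channel of that list also read higher on the former, at 10.29 and 10.31 beside 9.13 and 9.18. KRT7 alone of the 9 was at background, on GALNT3 KO array 1. Of 5 mesenchymal markers 2 were called higher in the GALNT3 KO clones, and 2 lower and 3 higher on the T3/T6-labelled arrays. All 4 ovarian markers were above background on every array, and 2 of them were called higher on the T3/T6-labelled arrays. The 4 leukocyte markers were also above background in both channels of all arrays, with mean log2 signals between 9.54 and 9.64. Standing above background therefore does not by itself mark a cell type here. Of these 4, CD3E was called lower on the T3/T6-labelled arrays (-0.36, adjusted p = 0.0277). Of the endothelial markers PECAM1 was at background throughout and CDH5 was not called. VWF was called higher on the T3/T6-labelled arrays (1.32, adjusted p = 0.0041) beside 0.15 in the GALNT3 KO clones (adjusted p = 0.562). The part of these shifts in the values of JARID2, BMI1 and RNF2 was not tested.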

How the data were processed

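RNA of 2 GALNT3 KO clones and 2 clones labelled GALNT3/T6 KO was measured against Ctrl RNA on 4 2-color Agilent arrays of 1 slide. The authors deposited scanner intensity values, extracted with Agilent Feature Extraction (8.5.1.1 in the submitters' processing notes, 10.7.3.1 in the file headers), and a table of log10 ratios of Cy5 over Cy3 per spot, which equals the scanner's own log ratio within rounding.

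From the intensities, background was corrected with normexp (offset 50), dyes were normalized by loess within arrays, flagged outlier and control spots were left out, and spots of a probe were averaged. Probes had to stand well above background in 1 channel or both, on each array of either group, and the brightest of them stood for its gene. limma 3.58.1 in R 4.3.3 fitted all 4 arrays with a mean for each group, and p-values were adjusted over 27223 genes (Benjamini-Hochberg, called at 0.05). The steps were tested on simulated data. Each group was set against 0, which leaves out the spread of Ctrl, and against the other group. The slide allows no batch term. With 2 clones a group the number of arrays limits the precision. Bounds ("at least") set the bright channel against the lowest signal well above background, per channel after loess and Aquantile, open to dye bias. Levels of different probes were not compared.

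The 9 genes and the gene lists were chosen with earlier results of these data known. Named from the lists were called genes with the largest changes (up to 4 a list and comparison) plus RBBP4, RBBP7, RING1, CDKN2A, CDKN2B, CDKN1C, KDM6A and KDM6B, and some that the rule allows are given only in the counts or are not reported here. PECAM1 and CDH5 were named after their values were seen. Probe positions are those of the files (hg19), whose exon and UTR annotation was not used here, and the promoter windows are those of RefSeq for GRCh38.p14. Alternatives changed the background correction, normalization, filter, probe summary, spread, block, arrays, call rule and test.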

Additional observations from a re-analysis of the deposited data

Results flagged for a closer look

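Among the genes named in the text, 24 had a difference between the groups that passed limma's test (GALNT3/T6 KO minus GALNT3 KO on the log2 scale, adjusted p of at most 0.05). Of all genes, 11.8% were called lower and 11.8% higher in that test. Many of the named genes were picked from the lists for large called changes, so the count is no result about these lists. The Polycomb genes were JARID2 at -0.82, BMI1 at -0.94 and RNF2 at -0.85. Of the other PRC2 and PRC1 subunits, the difference was -0.94 for MTF2, -1.30 for CBX6, -0.62 for CBX8 and -1.27 for PHC1. In variant PRC1 it was 4.12 for PCGF5, -1.09 for RYBP, -2.31 for BCORL1 and -1.40 for L3MBTL2. Of the genes that remove the marks, ASXL1 differed by 1.35, ASXL3 by -3.90 and KDM6A by 0.90. Of the target genes, CDKN2A differed by 0.47, CDKN2B by 2.44, CDKN1C by 4.56, KLF2 by 3.16, GATA6 by 4.52, HOXD10 by -3.68 and HOXD11 by -1.34. Of the cell type markers, KRT7 differed by 2.93 and VWF by 1.18. GALNT3 differed by 4.76 against its label. GATA6, GALNT3, PCGF5 and KRT7 were at background in a channel on 1 or both GALNT3 KO arrays, so those values are not exact.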

How the results depend on the processing

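Of the 9 Polycomb genes, limma called 3 in the GALNT3 KO clones, 6 on the T3/T6-labelled arrays and 3 between the groups. With the replicate block these counts were 0, 5 and 2 (82 of all genes in the GALNT3 KO clones, against 3003 without it), and 4 of the 9 had an unadjusted p under 0.05 in the GALNT3 KO clones. The deviations of same-numbered clones correlated at -0.239 across genes. With 2 clones a group this cannot show whether the numbers pair the samples. With the crossed pairing as a block, chosen after seeing the data, the counts were 3, 6 and 3. With 1 array left out they ranged from 0 to 4, from 5 to 7 and from 0 to 4. The lone clone is then assumed to vary like the other group, and the 0 counts came without GALNT3 KO replicate 1 or 2. An ordinary t-test of the 2 log2 ratios of a group against 0 called 0 in the GALNT3 KO clones and 0 on the T3/T6-labelled arrays after Benjamini-Hochberg adjustment. Of all genes it called 0 and 1. At an unadjusted p of at most 0.05 with 1.5-fold, the cutoffs of the paper, which names no test for them, it called 1 and 0. Of all genes it then called 930 and 3141, with 1 degree of freedom a group. Under all other alternatives the counts stayed within 1 of the main ones, also where a gene counted only if its probe with the smallest change was called, a setting chosen after seeing the data.

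PRC2 minus PRC1 moved beyond the spread between clones in 8 cases: in GALNT3 KO clone 1 to -0.21 without EZH1 and -0.20 without JARID2, in GALNT3 KO clone 2 to 0.074 with median centring and -0.50 without JARID2, in GALNT3/T6 KO clone 1 to 0.53 with the mean of the probes, and in clone 2 to 0.90 with Agilent's own log ratio or the deposited table and 0.82 with the mean of the probes. The Agilent log ratio and the deposited table turned EZH1 on the T3/T6-labelled arrays to 0.11, RNF2 in the GALNT3 KO clones to -0.063 and the CBX2 difference between the groups to -0.14. Median centring turned RNF2 to -0.15 and the CBX2 difference to -0.019, and the mean of the probes turned RNF2 to -0.094. With 1 array left out, RNF2 in the GALNT3 KO clones ranged from -0.019 to 0.21 and the EZH1 difference from -0.029 to 0.30, both lowest without GALNT3 KO replicate 2. SUZ12 on the T3/T6-labelled arrays ranged from -0.75 (called) without GALNT3/T6 KO replicate 2 to 0.12 without replicate 1, and its difference from -0.67 (called) to 0.20. None of the turned values was called. The cause was not tested. SUZ12 on the T3/T6-labelled arrays was called with Agilent's own log ratio and the deposited table (both -0.71). The results are limited by 2 clones a group, by the lack of Ctrl against Ctrl, and for CBX2 by a signal at background on 1 array.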
